A study of Mus musculus with 3 samples.

Results

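The large-subunit ribosomal protein mRNAs of mouse embryonic stem cells were examined by bisulfite sequencing. They were chosen by name alone: every listed transcript whose gene symbol begins with Rpl, which gave 56 of 13220 named genes, 66 transcripts and 9002 cytosines. All 46 standard large-subunit genes with such a symbol were listed. The other 10 symbols are Rpl3l, Rpl7l1, Rpl10l, Rpl22l1, Rpl31-ps12, Rpl32l, Rpl34-ps1, Rpl36al, Rpl37rt and Rpl39l, which are paralogues, retrocopies or models related to a standard gene. The 3 samples form 1 group with no wild type: embryonic stem cells of J1 background with genotype Tet1-/-,Tet2-/-,Tet3-/-, grown on feeder fibroblasts that were then removed by repeated plating. Nothing says whether they are separate cultures, so the spread between libraries may be technical. Polyadenylated RNA was converted with bisulfite, which makes unmodified cytosine read as thymine. A cytosine that still reads as cytosine may carry 5-methylcytosine, may have escaped the reagent, or may come from a misplaced read. These cannot be told apart in the reads. Bisulfite leaves 5-hydroxymethylcytosine unconverted too, and whether these cells, which lack Tet1, Tet2 and Tet3, held any was not tested.

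The large subunit joins amino acids at a catalytic centre made of ribosomal RNA, around which the Rpl proteins fold, guide the nascent chain out and form the stalk that recruits translation factors. Their mRNAs are among the most abundant of dividing cells. Many begin with a terminal oligopyrimidine tract, a run of cytosines and thymines at the cap through which growth signals control their translation. These genes have left many processed copies in the genome. The RefSeq gene table (GRCm38.p6, used for names only) holds 202 Rpl pseudogene symbols, among them 24 for Rpl31, 6 for Rpl26 and 1 for Rplp2. The copy that a read came from is therefore uncertain for many members.

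The letters at the start of these mRNAs were taken from the RefSeq promoter table (GRCm38.p6), which held 43 of the 56 genes. In 23 of the 29 transcripts that could be compared, every cytosine listed within the first 30 positions fell on a C of the table, 22 without a shift and Rplp2 with a shift of 1 base. The first sequence shows positions 5 to 34 of Rplp2 (chr7:141447654-141447683, plus strand), with the wholly unconverted cytosine at position 19 in capitals. The next 7 are positions 1 to 25 of the other matched mRNAs with at least 5 testable cytosines in the first 20 positions, shown because their pyrimidine tracts can be read base by base, with each tested cytosine in capitals. Their places are chr14:18270962-18270986 (Rpl15, minus strand), chr7:4792965-4792989 (Rpl28, plus strand), chr7:45718071-45718095 (Rpl18, plus strand), chr7:45128721-45128745 (Rpl13a, minus strand), chr2:32961712-32961736 (Rpl12, plus strand), chr2:39005107-39005131 (Rpl35, minus strand) and chr9:120571517-120571541 (Rpl14, plus strand).
Rplp2: tcgccgccggacgcCgccgaggtcgcacgc
Rpl15: cttCCtttCCtCtggCggCagCCat
Rpl28: ctCtttCCgtCtCCggCCgCCatag
Rpl18: gctctttcccCgCCCaCtCCggCgC
Rpl13a: gacctcctCCtttCCCaggCggCtg
Rpl12: gtCttttCggCtttCggCtCggagg
Rpl35: ctctttCtCtCgaaCCaggCtgCtt
Rpl14: CttCtCgCtgagCgCCgCCaaCatg
A run of 6 or more pyrimidines within the first 20 transcribed bases was present in 17 of 50 Rpl entries (34%) and in 18.4% of the 21212 entries of other protein-coding genes. Such a run need not begin at the first base, so this is not a count of terminal oligopyrimidine tracts.

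The Rpl mRNAs were read far more deeply than most. Coverage, the number of reads over a cytosine, had a median of 593, 550 and 578 in replicates 1, 2 and 3 at the 7630 Rpl cytosines that were testable, meaning covered by at least 10 reads in all 3 libraries. The mean over the libraries had a median of 576 for these and 30.3 for the testable cytosines of all genes. At the Rpl medians a cytosine with 0 unconverted reads could still have a share (taken as 3 reads of its coverage) of 0.506%, 0.546% or 0.519%. The genes took 6.79%, 7.2% and 7.6% of all coverage in replicates 1, 2 and 3. The library-wide unconverted share, used as the background, was 1.53%, 1.45% and 1.41%. The 10 stem cell markers, Pou5f1 and Sox2 among them, were all listed and took 0.502% to 0.53% of coverage. The 10 fibroblast markers took 0.0522% to 0.0701%, and Postn, Lum and Dcn were not listed. The part of feeder cells in the results below was not tested.

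**Figure D1:**
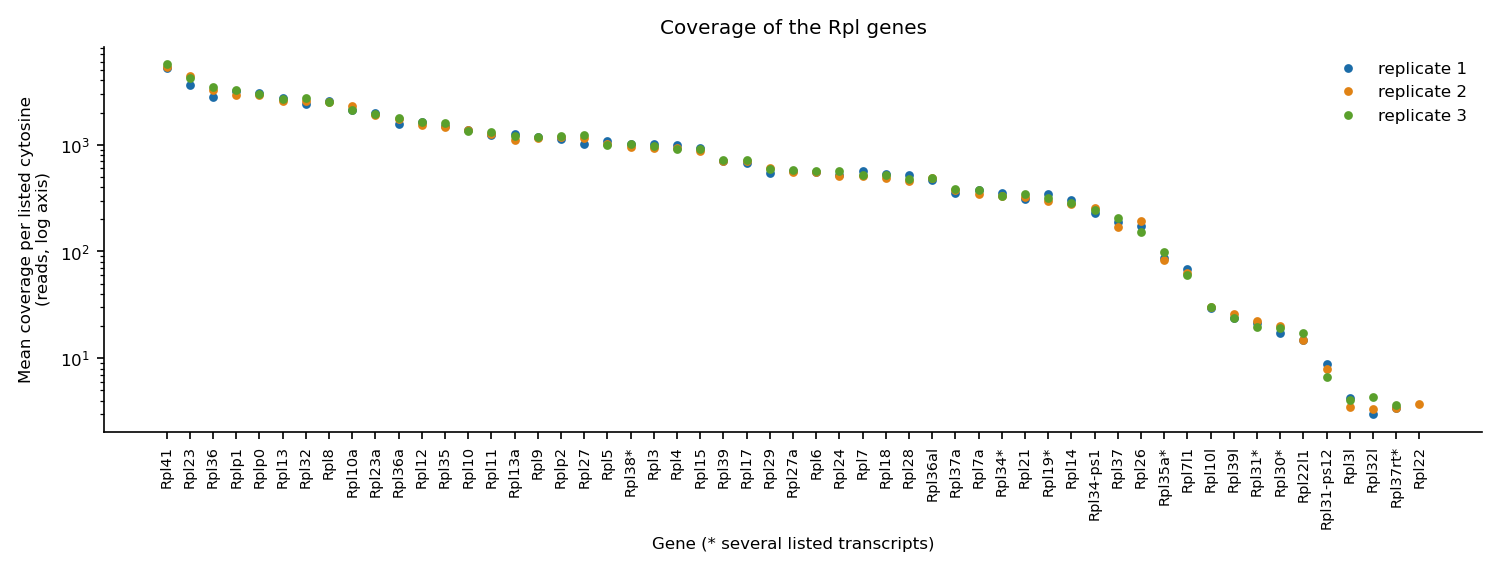
Mean coverage per listed cytosine (reads, log axis) of 55 of the genes, 1 point per library; an asterisk marks genes with several listed transcripts. The points of a gene lie close together, and the genes run from 5381 reads (mean) for Rpl41 to below 10 for the 5 genes at the right, of which Rpl22 has a point for replicate 2 alone.

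Per listed cytosine, coverage ran from 5381 ± 225 reads in Rpl41 (SD, n = 3), which encodes the shortest ribosomal protein, to below 10 reads. The 10 genes with the largest summed coverage held 56.3% of all Rpl coverage. They included the stalk genes Rplp0 and Rplp1, Rpl23, Rpl41, Rpl8, Rpl13, Rpl10a, Rpl36 and Rpl32. Rplp0, the base of the stalk, took 0.687% ± 0.0319 of all coverage in the libraries, with 3019, 2911 and 3006 reads per cytosine. Rplp1, a stalk partner, had 3214, 2898 and 3221 reads per cytosine, and Rplp2 had 1124, 1179 and 1194. Rplp2 thus lay below the other two in each library, while the ranges of Rplp0 and Rplp1 overlapped. Rpl23, whose protein lies where the assembly factor Eif6 binds, varied more, with 3613, 4438 and 4255 reads per cytosine. Rpl8, close to the catalytic centre, had 2588, 2502 and 2513, and Rpl10a, of the mobile L1 stalk, 2126, 2295 and 2122. Coverage is only a rough measure of abundance, and fewer cells of a type and less RNA per cell cannot be told apart in such samples.

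The standard genes and their paralogues differed widely in coverage. Rpl3 had 971 ± 48.9 reads per listed cytosine and its muscle paralogue Rpl3l 3.93 ± 0.379. Rpl10, which joins the subunit late in assembly, had 1359 ± 13.5, and the testis retrocopy Rpl10l 29.9 ± 0.525. Rpl39 had 707 ± 8.37 and its testis paralogue Rpl39l 24.4 ± 1.38. Rpl7 had 533 ± 31.8, and Rpl7l1, a paralogue that works in large-subunit assembly, 63.4 ± 4.2. Rpl36a had 1696 ± 109 and the retrocopy Rpl36al 478 ± 12.8 (SD, n = 3 throughout). In these 5 pairs every library placed the standard gene above its paralogue. The pair of Rpl34, at 338 ± 14.8, and Rpl34-ps1, at 243 ± 15.3, lay closer, and the reads of these related models cannot be assigned with certainty. Rpl22 had only 7 listed cytosines, all in replicate 2 and within positions 409 to 436 of 1 transcript. It can therefore not be compared with its paralogue Rpl22l1, which had 15.6 ± 1.36 reads per cytosine.

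Genes with several transcript models were read more thinly. The 7 genes with several listed transcripts had a median coverage of 89.8 reads per cytosine and the 49 genes with 1 transcript 707. No cytosine of the 7 genes was listed beyond position 352, the last in Rpl31. Their values therefore cover no later part of the mRNA. Rpl30 stood at 18.8 ± 1.41 reads, Rpl31 at 21.3 ± 1.32 and Rpl35a at 89.8 ± 7.67, all with several transcripts. Rpl38, also with several, had 997 ± 34.1. How reads that match several models were assigned is not given in the sources used here, and its part in these levels was not tested. Rpl26, with 1 transcript, had 173 ± 20.1 reads and 33 testable cytosines of 63 listed. The 4 genes with no testable cytosine were Rpl3l, Rpl22, Rpl32l and Rpl37rt. The other 52 were tested.

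Which Rpl cytosines stayed unconverted beyond the background was asked next. In each library the unconverted reads of a cytosine were set against the library-wide share by a one-sided exact binomial test, and Fisher's method joined the 3 p-values of a cytosine, with Benjamini-Hochberg adjustment over all 1639820 testable cytosines of all genes. A cytosine counted as a candidate where the adjusted p was below 0.05, the mean share reached 10% and every library lay above its own background. Of the 7630 Rpl cytosines, 12 in 8 genes were candidates, or 0.157% (exact 95% interval 0.0813% to 0.275%), against 0.0473% of all testable cytosines and 0.0467% of those in other genes. By depth, 8 of 1602 Rpl cytosines with a mean coverage of 10 to below 100 reads were candidates (0.499%, against 0.0504% of all), 3 of 3303 at 100 to below 1000 (0.0908% against 0.0294%) and 1 of 2725 at 1000 or more (0.0367% against 0.0159%). Without Rpl26, Rplp2, Rpl34-ps1 and Rpl7l1, which held 8 of the 12, 4 of 7027 were left, or 0.0569% (0.0155% to 0.146%). The 4 are in Rpl18, Rpl29, Rpl31 and Rpl36a. Leaving out replicate 1 or replicate 2 made that count 2. The genes left out were named with earlier results of these data known, and no genes with candidates were left out elsewhere. The share of 0.0569% can therefore not be set against that of all genes. Both exact intervals take cytosines as independent, although neighbours share reads.

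**Figure D2:**
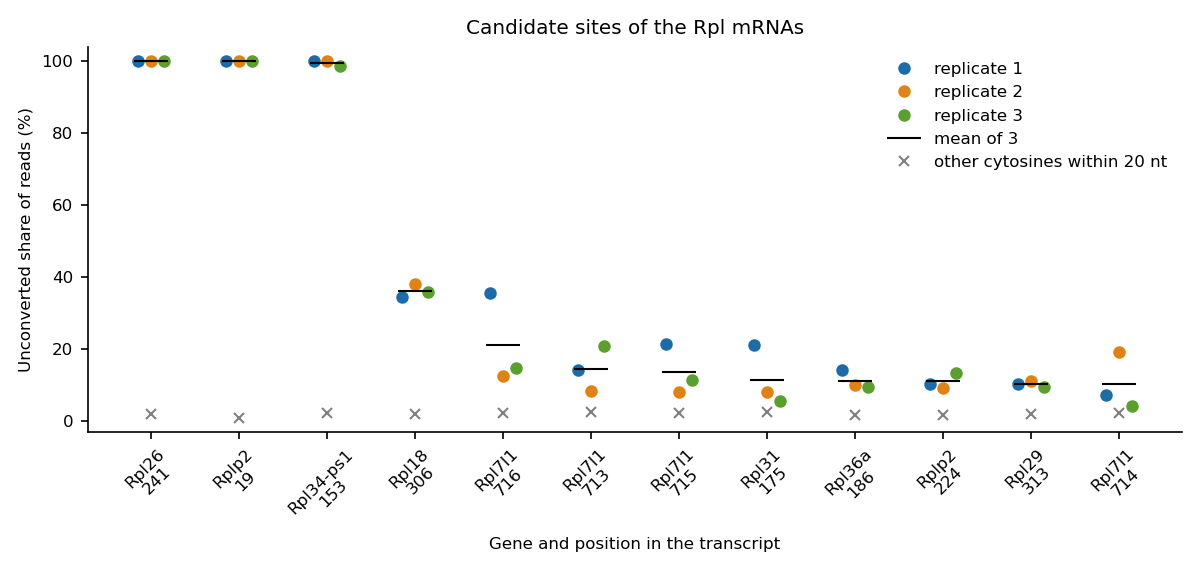
Unconverted share (%) at the 12 candidate sites, named by gene and position in the transcript, with 1 point per library, the mean as a bar, and the mean share of the non-candidate cytosines within 20 nt as a cross. Rpl26 position 241, Rplp2 position 19 and Rpl34-ps1 position 153 lie at 98.6% to 100%, Rpl18 at 34.6% to 38.2%, and all crosses lie below 3%.

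At 3 sites practically every read was unconverted. Rpl26 (NM_009080.2) encodes a protein beside the exit tunnel, and its position 241 was unconverted in 24 of 24, 21 of 21 and 29 of 29 reads (pooled 95% Wilson interval 95.1% to 100%). Position 19 of Rplp2 (NM_026020.6), the C in capitals in the sequence above, gave 16 of 16, 13 of 13 and 12 of 12 (91.4% to 100%). Position 153 of Rpl34-ps1 (NM_001199350.1) gave 62 of 62, 67 of 67 and 72 of 73. All libraries were thus at or next to 100% at each site. The other cytosines within 20 nt were mostly converted, with a mean share of 1.87% around Rpl26, 0.831% around Rplp2 and 2.26% around Rpl34-ps1. In single libraries this share ran from 0% to 4.4% around Rpl26 and from 0.893% to 3.25% around Rpl34-ps1. Around Rplp2 it ran from 0.658% to 1.1%. Of the 13 listed neighbours of the Rplp2 site, none exceeded 4.88% over the 3 libraries together.

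Coverage around these sites was uneven. Summed over the libraries, the Rpl26 site had 74 reads, while listed cytosines at 50 to 100 nt on either side had medians of 4.5 and 3, and the transcript reached 2637 reads elsewhere. The Rpl34-ps1 site had 202 reads, with medians of 13.5 and 46.5 on the sides and a peak of 4651. The Rplp2 site had 41 reads at the very start of the mRNA, with a median of 977 at 50 to 100 nt downstream and a peak of 20179. The wholly unconverted sites therefore lay in thinly read stretches of deeply read mRNAs. The origin of the reads at these sites was not tested.

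Rpl18 (NM_009077.2) held the strongest partial site of the family. At position 306, 94 of 272, 99 of 259 and 89 of 248 reads were unconverted, a mean of 36.2% ± 1.86 (SD, n = 3), far above the 1.94% of the 9 other cytosines within 20 nt. The libraries were close to each other, and the largest of the library p-values was 1.66e-97 (exact binomial test). A listed cytosine lies just before it, and none of the 9 neighbours exceeded 2.87% over the libraries together. Coverage at 50 to 100 nt had a median of 1478 reads upstream and 6 downstream. Rpl18 was called under all 9 other settings tried, as were Rpl26 and Rpl34-ps1.

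Lower sites stood at the level minimum. Rpl29, a small basic protein, had 291 of 2814, 359 of 3277 and 285 of 3041 reads at position 313, or 10.2% ± 0.798, against 1.86% at its neighbours. It is the most deeply read candidate, and each library alone was far above the background (largest exact binomial p = 2.92e-136). Rpl36a, which sits near the exit site for transfer RNA, had 14.3%, 9.9% and 9.44% at position 186, a mean of 11.2% ± 2.67 from 533 reads. Position 224 of Rplp2 had 10.4%, 9.24% and 13.4%, a mean of 11% ± 2.17 from 1291 reads. The binomial p-values of each library stayed far below the threshold at these 3 sites, but some libraries lay under 10%. Coverage was uneven around Rpl36a and Rplp2. Summed over the libraries, cytosines at 50 to 100 nt from the Rpl36a site had medians of 677 reads upstream and 30606 downstream. Upstream of the Rplp2 site the median was 18875. The Rpl29 site had 9132 reads, with medians of 1824 upstream and 1265 downstream. The mean fell to 9.86% at Rpl29 without replicate 2, to 9.67% at Rpl36a without replicate 1 and to 9.8% at Rplp2 without replicate 3, which ended the call in each case.

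The remaining candidates rested on few reads. In Rpl7l1 (NM_025433.3), 4 adjoining cytosines from 713 to 716 were candidates at 10.2% to 21%, with 14 to 27 reads per library. Pooled over the run, the share was 19.6%, 12.1% and 12.9%, and since the same reads can cross all 4 cytosines they are not separate findings. Position 716 had 5 of 14, 3 of 24 and 4 of 27 reads, so that replicate 1 stood apart, and it stayed a candidate without any 1 library. The others did not: 713 was lost without replicate 3, 714 without replicate 2 and 715 without replicate 1 or 3. Rpl31, a protein at the tunnel exit, had 4 of 19, 2 of 25 and 1 of 18 reads at position 175 of NM_001252218.1 (adjusted p = 0.0425, Fisher's combination of exact binomial tests). It was called under only 1 of the 9 other settings and was lost without replicate 1 or replicate 2. The 3 cytosines next below the level minimum with an adjusted p below 0.05 were Rplp2 position 255 at 7.45% ± 6.45, Rpl14 position 52 at 7.07% ± 5 and Rpl10 position 233 at 6.89% ± 0.977. At Rplp2 position 255 replicate 1 had 0 of 51 unconverted reads, and replicates 2 and 3 had 11.4% and 10.9%.

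All 8 candidates outside the Rpl7l1 run had no listed cytosine at the next position, as had 72.3% of the testable Rpl cytosines. Of the 8, 4 had a listed cytosine just before, as had 2117 of the 7630 testable Rpl cytosines. The letters around the sites other than that of Rplp2 are not used here.

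The depth of these mRNAs also showed differences far below the 10% minimum. At any level, 491 Rpl cytosines in 46 genes passed the adjusted threshold of the same test, or 6.44%, against 0.499% of all testable cytosines. Most were weak, with 303 below 3%, 153 from 3% to below 5%, 23 from 5% to below 10% and 12 at 10% or more. The share called grew with depth everywhere. At a mean coverage of 1000 reads or more it was 12.9% of 2725 Rpl cytosines and 11.3% of all, and at 100 to below 1000 it was 3.72% against 1.91%. At 10 to below 100 reads it was 1.06% of 1602 Rpl cytosines against 0.176%. The Rpl share thus lay above that of all genes in each class, and in relative terms the gap was smallest in the deepest class. Depth was not matched within a class, and its part in these gaps was not tested. There the exact interval of the Rpl share was 11.6% to 14.2%, which leaves out the 11.3% of all genes. That interval takes cytosines as independent, although neighbours share reads, and the shares of all genes include the Rpl cytosines.

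**Figure D3:**
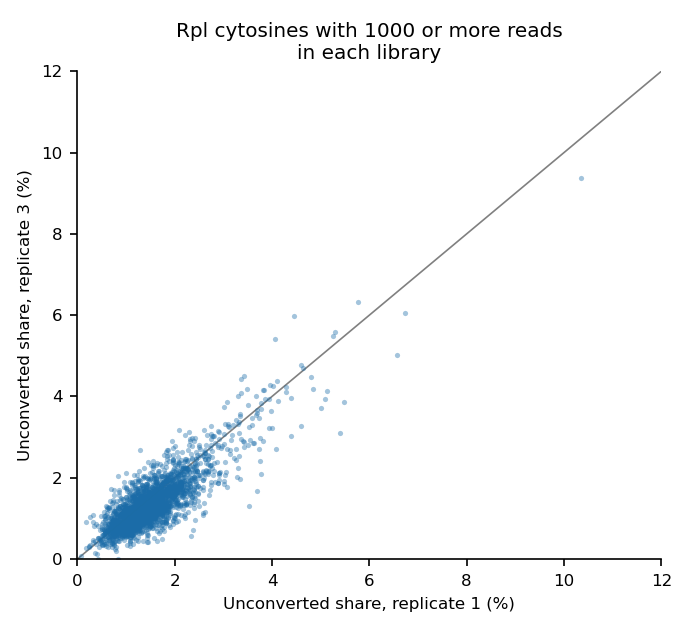
Unconverted share (%) in replicate 1 (x axis) and replicate 3 (y axis) of the 2599 Rpl cytosines with at least 1000 reads in each library, 1 point per cytosine; the line marks equal shares. The cloud follows the line, most points lie below 3%, and the point near 10% is Rpl29 position 313.

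At the 2599 Rpl cytosines with at least 1000 reads in each library, the share was similar from library to library. For pairs of libraries, Pearson's r over these cytosines of 40 genes ran from 0.844 to 0.852, and Spearman's rho from 0.738 to 0.749. In the 8902 cytosines of other genes at this depth, r was 0.823 to 0.827. Cytosines are not independent, and those of 1 library share its conversion. The mean share ran from 0.053% to 10.2%, with 1.07%, 1.34% and 1.69% as quartiles, while the median SD over the libraries was 0.206. Pooled over the 40 genes, the outer quartiles of these deep cytosines thus lay further apart than the median SD over the libraries. These measures of spread are not the same, and the spread within single mRNAs was not computed.

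The ends of this range can be named, though they were chosen after their values were seen. Besides Rpl29, 6 of the deep cytosines reached 5%. Position 121 of Rpl23a, where the signal recognition particle docks, had 6.73%, 6.81% and 6.05%, a mean of 6.53% ± 0.419 from 11951 reads. Its neighbours within 20 nt had 1.25%. The others were Rpl17 position 292 at 5.83% ± 0.456, Rpl9 position 126 at 5.77% ± 0.773, Rpl7 position 345 at 5.34% ± 0.79, Rplp0 position 307 at 5.34% ± 0.118 and Rpl34 position 70 at 5.33% ± 0.242. Their shares in single libraries ran from 4.45% to 6.81%, well above the background in each. At the other end stood Rpl3 position 61, with 0.0806%, 0% and 0.0785% from at least 1241 reads per library.

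Whole genes were then compared with their library. The log2 odds of the unconverted share, summed over a gene's testable cytosines, minus the log2 odds of the library, was tested over the 3 libraries with limma for 7435 genes with at least 20 testable cytosines. Of the 50 Rpl genes in this test, 22 were higher than their library and 13 lower at an adjusted p below 0.05. Over all genes 6.81% were higher and 7.42% lower. Among genes with a coverage sum of at least 50000 reads (mean of the libraries), calls were more frequent: 16 of 36 Rpl genes were higher (23.5% of all such genes) and 12 lower (27.7%). The Rpl median difference was 0.001, and that of all genes was -0.012. The calls rest on letting the expected spread fall with coverage: with 1 common spread for all genes, limma called 0 of 50, with 13 at an unadjusted p below 0.05.

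**Figure D4:**
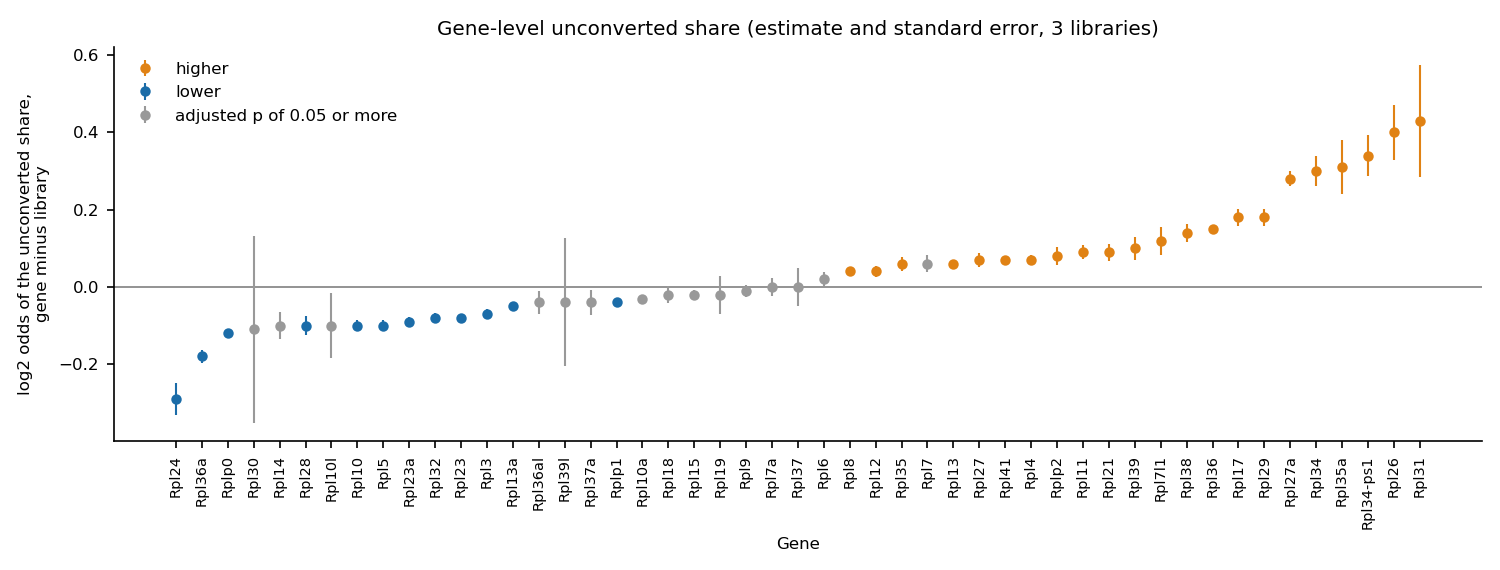
Log2 odds of the unconverted share, gene minus library, for 49 Rpl genes in order, with the standard error from limma over 3 libraries; colours mark genes higher, lower or not past the threshold. The estimates run from -0.29 for Rpl24 to 0.43 for Rpl31.

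Rpl24 and Rpl36a were among the genes with the lowest gene-level shares. Rpl24, which joins the subunit late and bridges to the small one, had 1.2%, 1.19% and 1.2% in the 3 libraries, a difference of -0.29 ± 0.042 (SE, limma adjusted p = 8.81e-06). The listed cytosines of Rpl24 lay only at positions 451 to 675, so its share covers no earlier part of the mRNA. Rpl36a had 1.39%, 1.25% and 1.24%, a difference of -0.18 ± 0.018, although it carries a candidate site. Both were below the background in every library. Among the genes with the largest coverage, Rplp0 (-0.12), Rpl23 (-0.08), Rpl32 (-0.08) and Rplp1 (-0.04) were lower. In the same group Rpl36 (0.15), Rpl41 (0.07), Rpl13 (0.06) and Rpl8 (0.04) were higher, and Rpl10a, at -0.03 ± 0.010, did not pass (limma adjusted p = 0.0755).

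The highest gene-level shares were those of Rpl31, Rpl26 and Rpl34-ps1. Rpl31 had 1.75%, 1.84% and 2.25%, a difference of 0.43 ± 0.145 (SE, limma adjusted p = 0.0448), and its call was lost whichever library was left out, as was that of Rpl7l1. Rpl26 had 1.94%, 1.87% and 1.94%, or 0.40 ± 0.071 (limma adjusted p = 0.000158). Rpl34-ps1 had 1.8%, 1.79% and 1.93%, or 0.34 ± 0.054 (limma adjusted p = 3.58e-05). Each of these genes holds a candidate site, and without the candidate cytosines the calls of Rpl26, Rpl29, Rpl31, Rpl34-ps1, Rpl7l1 and Rplp2 were lost. Another 3 genes, chosen after their values were seen, stood high with no candidate. Rpl35a, a gene mutated in Diamond-Blackfan anaemia, had 1.81%, 1.95% and 1.68% (0.31 ± 0.070, limma adjusted p = 0.00216). The others were Rpl27a at 1.86%, 1.78% and 1.68% (0.28 ± 0.019, limma adjusted p = 1.36e-12) and Rpl34 at 1.8%, 1.82% and 1.77% (0.30 ± 0.039). In Rpl31, Rpl35a and Rpl34 the last listed cytosines were at positions 352, 171 and 276, so their shares cover no later part of the mRNA.

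The stalk genes split. Rplp0 was lower at 1.42%, 1.33% and 1.3% (limma adjusted p = 1.12e-13), Rplp1 was lower at 1.5%, 1.41% and 1.37% (0.0141), and Rplp2 was higher at 1.61%, 1.5% and 1.53% (0.0142), the last only with its candidate sites. The call of Rplp1 was lost without replicate 2 or replicate 3, and that of Rplp2 without replicate 3. Within 5 paralogue pairs the ranges of the libraries overlapped. Rpl7 had 1.52% ± 0.0772 and Rpl7l1 1.59% ± 0.0669, with Rpl7 the lower in each library. Rpl10 had 1.37% ± 0.0908 and Rpl10l 1.36% ± 0.0843, and Rpl39 had 1.57% ± 0.0573 and Rpl39l 1.43% ± 0.387. Rpl34 had 1.8% ± 0.0245 and Rpl34-ps1 1.84% ± 0.0778. Rpl36a, at 1.29% ± 0.0816, also lay below Rpl36al, at 1.42% ± 0.092, in each library. Differences within pairs were not tested. Rpl22l1 and Rpl31-ps12, with 12 and 4 testable cytosines, were outside the gene test.

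Over all reads of testable cytosines, the Rpl genes stood at 1.53%, 1.43% and 1.39% and other genes at 1.53%, 1.45% and 1.4%. The mean difference was -0.008 ± 0.008 percentage points (SD, n = 3), higher in 1 library and lower in 2 (exact sign-flip permutation test, two-sided, p = 0.5; 3 libraries cannot give less than 0.25). Without Rpl26, Rplp2, Rpl34-ps1 and Rpl7l1 it was -0.001, -0.017 and -0.014, lower in 3 of 3 libraries, with a mean of -0.011 ± 0.009 (exact sign-flip permutation test, two-sided, p = 0.25). Both mean differences were thus small beside the SD of the Rpl share over the libraries (0.0703). They were about as large as the SD of the differences taken within libraries. The median over genes put the Rpl genes above the others by 0.0301 percentage points.

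The unconverted share stood lower towards the start of the mRNA in each library. At positions 1 to 10, Rpl cytosines had 0.347%, 0.444% and 0.54% in the 3 libraries, over 39 cytosines of 14 genes and 4819 to 5194 reads per library. At positions 11 to 20 the share was 0.863% ± 0.0272, at 21 to 50 it was 1.26% ± 0.0464, at 51 to 100 it was 1.38% ± 0.0896 and beyond 100 up to 200 it was 1.51% ± 0.0726 (SD, n = 3). The first 20 positions were below the later ones in every library. Other genes had 0.705% ± 0.0947, 0.959% ± 0.0547 and 1.42% ± 0.0601 in the first 3 of these classes. Over their tested cytosines, the 7 mRNA starts of 25 bases printed above had means from 0.659% ± 0.124 in Rpl15 to 1.08% ± 0.456 in Rpl35, with Rpl12 at 0.713% ± 0.0837, Rpl18 at 0.837% ± 0.314, Rpl28 at 0.88% ± 0.157, Rpl13a at 0.91% ± 0.25 and Rpl14 at 0.968% ± 0.261. All 7 means lay below the library-wide shares, but replicate 3 of Rpl35, at 1.53%, did not. The first cytosine of the longest pyrimidine run was not tested in Rpl15, Rpl28, Rpl18, Rpl13a and Rpl35, so these means cover their tracts only in part. The stretch of Rplp2, which holds its wholly unconverted site, had 11.5% ± 0.759.

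**Figure D5:**
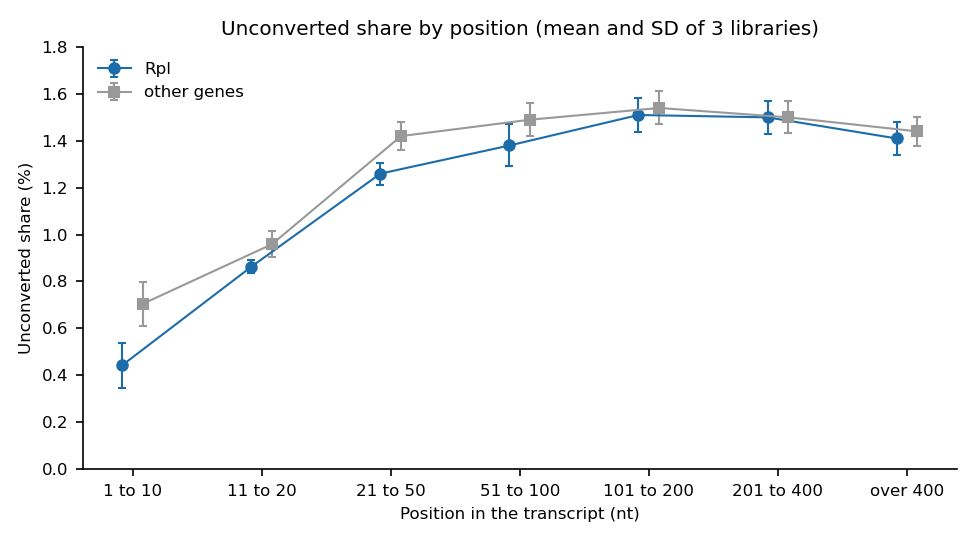
Unconverted share (%) by position in the transcript for Rpl genes (circles) and all other genes (squares), as the mean and SD of 3 libraries over all reads at testable cytosines. Both rise from the start of the mRNA, the Rpl genes from 0.443% at positions 1 to 10 to 1.51% beyond 100 up to 200.

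Over the first 50 positions Rpl mRNAs had 1.21%, 1.23% and 1.16%, and over the later ones 1.54%, 1.44% and 1.4%. The first minus the later share was -0.330, -0.204 and -0.241 percentage points in replicates 1, 2 and 3, and in other genes -0.128, -0.080 and -0.120. The Rpl difference was further below 0 in 3 of 3 libraries, and the difference of the differences was -0.149 ± 0.046 (exact sign-flip permutation test, two-sided, p = 0.25, the smallest that 3 libraries allow). Of 34 Rpl genes with at least 3 testable cytosines on each side of position 50, 22 were lower at the start in all 3 libraries and 4 were higher in all 3. The same count was not made for other genes, so whether 22 of 34 is unusual cannot be said. Rpl19, at 0.647% ± 0.0119 against 1.61% ± 0.00526, and Rpl8, at 0.987% ± 0.0643 against 1.52% ± 0.0819, were among the 22. The 4 that went the other way were Rpl7a, Rpl10l, Rpl23a and Rplp2, the last with its wholly unconverted site. Rpl23a had 2.12% ± 0.069 at the start against 1.37% ± 0.0554.

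Runs of cytosines, common in pyrimidine tracts, had a slightly lower unconverted share. Rpl cytosines followed by another cytosine had 1.49%, 1.39% and 1.35%, and the others 1.54%, 1.45% and 1.41%. The difference was -0.057 ± 0.003 percentage points, lower in 3 of 3 libraries (exact sign-flip permutation test, two-sided, p = 0.25), and in other genes it was -0.032 ± 0.010. For a cytosine at the previous position the differences were -0.106 ± 0.021 in Rpl genes and -0.122 ± 0.010 in other genes.

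The neighbouring parts of the ribosome pathway gave similar overall levels. The 32 listed small-subunit genes had an unconverted share of 1.45% ± 0.0649, with 5 candidates in 2 genes among 4710 testable cytosines (0.106%), and 11 genes were higher and 9 lower of 32 in the limma test. The 49 listed mitochondrial large-subunit genes stood at 1.46% ± 0.0636, with 3 candidates among 7430, and 4 of 48 were higher and 2 lower at a median coverage of 37.3 reads. The 34 listed large-subunit assembly factors held 2 candidates among 12490 cytosines, in Nop2 and Rbm28, and 5 of 30 were higher and 1 lower. Among them Senp3, a protease for the SUMO modifier, was higher at 1.99% ± 0.126 (0.46 ± 0.071, limma adjusted p = 2.28e-05), and Gtpbp4, a GTPase of early assembly, was lower at 1.26% ± 0.098 (-0.22 ± 0.030, limma adjusted p = 5.72e-06). Differences between these groups and the Rpl genes were not tested.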

How the data were processed

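Each deposited table has 1 line per covered cytosine, with its RefSeq transcript and position, the coverage as a read count and the unconverted reads as a fraction of it. The submitters' processing notes name BSMAP and build mm9; the counting step is not given in the sources used here. The authors listed no cytosine below a coverage of 3. Fraction times coverage was whole (within 1e-06) at 100% of cytosines and was taken as the unconverted count. Of 15021 transcripts, 14928 matched a symbol by accession without version. Coverage summed to 139884444 to 151362866 per library, with medians of 10 to 11 reads; no 2 libraries held identical values. Intervals and limits from 0 counts cover counting error only, since the reads carry no molecular identifiers.

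SciPy 1.17.1 gave the exact tests and limma 3.58.1 (R 4.3.3) the gene test, with a pseudocount of 0.5 on unconverted and converted reads and the prior spread as a trend on log2 coverage. That trend was chosen on simulated data, where the test over 7435 genes recovered 137 of 200 genes changed by 0.5 log2 odds, with 10 false calls, and 0 of 200 without it. The site test recovered 64 of 100 simulated sites at 15% and 100 of 100 at 50%. Members and lists were chosen with earlier results of these data known. Named were all genes with a candidate, the stalk genes, the 10 with the largest coverage, the 3 highest and 3 lowest gene shares, the paralogue pairs and the 3 cytosines next below the level minimum; further names were picked with their values in view. One gene named by this rule is not reported here and is not drawn in the plots by gene. Alternatives covered coverage and level minimums, the test, the background and leaving out each library.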

Additional observations from a re-analysis of the deposited data

How the results depend on the processing

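The 12 Rpl candidates became 6 at a coverage minimum of 20 reads, 5 at a level minimum of 20%, 7 with the highest of the 3 p-values and 9 to 10 without 1 library. Without Rpl26, Rplp2, Rpl34-ps1 and Rpl7l1, the 4 candidates became 1 at a level minimum of 20% and 2 to 4 without 1 library. Other settings kept both counts within 1.5 times. With a common spread for all genes, a setting chosen after seeing the data, limma called 0 Rpl genes higher and 0 lower in place of 22 and 13, with 13 at an unadjusted p below 0.05; without 1 library it called 17 to 18 higher and 10 to 14 lower. The difference of Rpl from other genes of -0.0085 percentage points reversed to 0.0301 for the median over genes, and was -0.0132 to -0.0053 without 1 library; the cause was not tested. The Rpl share of coverage was 7.93% over testable cytosines, and 7 to 7.4% without 1 library. The Rpl unconverted share was 1.41% to 1.48%, the start gap -0.286 to -0.222 and the difference for runs -0.059 to -0.056 without 1 library. Over the first 100 positions the start gap was -0.118 in place of -0.258. At a coverage of 10 reads a count of 0 allows a share of up to 30%. No paired analysis was possible because the samples form 1 group.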
